A study of Mus musculus with 13 samples.

Results

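The 10 fibroblast and matrix genes described here were measured in CD45-positive cells sorted from mouse tumours, and they were picked by name out of 56923 gene IDs. They are Col1a2, Col15a1, Svep1, Matn2, Reck, Tfpi2, Sdc2, Cav1, Tpm2 and Sgce. All lie in 3 stretches of the mouse genome, on chromosomes 4, 6 and 15, that hold 1248 IDs and in which gene names fit the counts attached to them. The members were picked with their levels, their correlations and their difference between the groups already known, so those values describe the genes and are no independent evidence about them.

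RNA was sequenced from 6 libraries titled as PSGL1 knockout and 7 titled as control, here called PSGL1_KO and vector. The titles name EL4 throughout, while the treatment labels carry a running number in that place, so the titles were used. The PSGL1_KO libraries came from tumours of EL4 cells carrying a knockout of PSGL1, and the vector libraries from tumours of EL4 cells carrying a vector. PSGL-1, encoded by Selplg, is a ligand of selectins on leukocytes, and EL4 is a mouse T-cell lymphoma line. In both groups 500000 EL4 cells per mouse were placed under the skin of the right flank of mice aged 6 to 8 weeks. Tumours were removed after about 20 days and digested, and CD45-positive cells were collected by flow cytometry. The host cells are not described as altered in either group, and the labels give neither the strain of the mice nor whether the knockout cells were 1 clone. EL4 cells are themselves of the CD45-positive lineage, so a library can hold tumour cells and host leukocytes. Whether each library is a separate mouse is not in the labels, so the spread behind every p-value is that among libraries and may be technical in part.

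Fibroblasts build the interstitial matrix of connective tissue and of tumours, secreting fibrillar collagen and glycoproteins and holding on to that matrix through surface proteoglycans and the actin cytoskeleton. CD45 is a surface phosphatase of blood-derived cells that fibroblasts do not carry. Several of the 10 genes are also used by other cells without CD45, caveolin by endothelium and beta-tropomyosin by muscle among them. Which cells of the sorts held the RNA described here, the CD45-positive cells themselves included, was not tested.

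Each library had 3710817 to 5712566 reads counted in genes (median 4584464), which were 10.5% to 12.5% of the reads accounted for in each file. In the stretches 53.5% of 469 protein-coding IDs averaged 20 CPM (counts per 1e6 reads counted in genes) or more, against 2.1% of 779 other IDs. Outside the stretches the shares were 17.0% and 2.9%, and names there were not relied on. The genes of CD45 and of PSGL-1, Ptprc and Selplg, lie outside the stretches, as do the fibroblast genes Col1a1, Col3a1, Dcn and Pdgfra, so neither the sort, nor the knockout, nor the word fibroblast was checked against them. The number in each deposited file's name starts with 7 or with 3, and the labels do not say what it stands for. It starts with 7 in 4 PSGL1_KO and 5 vector libraries and with 3 in 2 PSGL1_KO and 2 vector libraries. Vector replicate 5 stood apart, with 34.5% of its gene counts on the mitochondrial chromosome, where the lowest share was 10.0% and the median 13.5%. Its TMM factor, the scaling that makes libraries comparable, was 0.746, the lowest of the 13. Among the members and the listed stromal genes, leaving it out ended the calls of Sdc2, Sdcbp, Zfp462 and Basp1, and their values without it are also given.

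The members hold the following places on GRCm38 by GENCODE M21, all as protein-coding genes, and the levels below count reads over their exons. On chromosome 6 lie Tfpi2 (3962595 to 3988919, minus strand), Col1a2 (4504814 to 4541544, plus strand), Sgce (4674350 to 4747207, minus strand) and Cav1 (17306335 to 17341452, plus strand). Cav1 is the last protein-coding gene inside its stretch, and the next, Met, was not used. On chromosome 4 lie Tpm2 (43514711 to 43523765, minus strand), Reck (43875530 to 43944806, plus strand), Col15a1 (47208161 to 47313167, plus strand) and Svep1 (58042442 to 58206859, minus strand). Sdc2 (32920723 to 33034935, plus strand) and Matn2 (34306677 to 34436273, plus strand) lie on chromosome 15. The strand setting of the counting is not given in the sources used here, and a noncoding gene on the opposite strand, Gm26889, shares 13.9% of the exon bases of Svep1. For Col15a1 and Matn2 the share under an opposite gene is 0.2% and 1.1%, and for the other members it is 0.

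The sequences just upstream of the start sites of Col1a2, Svep1, Reck and Tfpi2 are shown because Col1a2 carried most of the members' counts and the other 3 differed between the groups in nearly all settings tried. Each run holds the 250 bases before a start listed by RefSeq on GRCm38.p6, 5′ to 3′ on the strand of the gene, and capitals mark matches to the motifs named below. For Col1a2 and Svep1 that start and the run lie inside the GENCODE span given above, and distances below count from the RefSeq start. The regions are chr6:4505368-4505617 (plus strand) for Col1a2, chr4:58206597-58206846 (minus strand) for Svep1, chr4:43875280-43875529 (plus strand) for Reck and chr6:3988937-3989186 (minus strand) for Tfpi2, which has 3 listed starts.
Col1a2: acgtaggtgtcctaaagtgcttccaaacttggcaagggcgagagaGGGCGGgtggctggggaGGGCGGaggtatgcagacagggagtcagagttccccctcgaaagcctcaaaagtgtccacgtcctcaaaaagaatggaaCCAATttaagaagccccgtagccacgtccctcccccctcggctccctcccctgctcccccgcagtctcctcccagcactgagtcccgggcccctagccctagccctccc
Svep1: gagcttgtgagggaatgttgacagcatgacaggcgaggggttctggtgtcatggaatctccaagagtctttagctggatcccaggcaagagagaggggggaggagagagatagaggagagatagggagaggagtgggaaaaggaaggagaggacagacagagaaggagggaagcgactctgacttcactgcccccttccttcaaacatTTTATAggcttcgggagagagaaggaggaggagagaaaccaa
Reck: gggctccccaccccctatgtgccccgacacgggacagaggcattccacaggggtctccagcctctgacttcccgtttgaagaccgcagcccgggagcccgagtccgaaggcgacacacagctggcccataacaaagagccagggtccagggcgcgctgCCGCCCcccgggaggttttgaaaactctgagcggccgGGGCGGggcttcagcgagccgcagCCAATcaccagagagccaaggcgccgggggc
Tfpi2: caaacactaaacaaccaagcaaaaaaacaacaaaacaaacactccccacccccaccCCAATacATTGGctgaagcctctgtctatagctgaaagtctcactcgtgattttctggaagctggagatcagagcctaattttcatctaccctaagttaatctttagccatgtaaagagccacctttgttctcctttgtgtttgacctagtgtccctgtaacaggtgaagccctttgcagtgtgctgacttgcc

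Upstream runs were found for 7 of the 10 members. Those of Matn2, Sdc2 and Sgce were not used here. The motifs searched, on both strands, were the TATA box as TATAAA, the CAAT box as CCAAT, the GC box as GGGCGG, the AP-1 site as TGANTCA, and the CArG box. Col1a2 held CCAAT 109 to 105 bases before its start and GGGCGG at 205 to 200 and 188 to 183 bases. Reck held CCAAT 31 to 27 bases before its start, with GGGCGG at 55 to 50 bases and, on the opposite strand, at 92 to 87 bases. In Tfpi2 CCAAT stood 194 to 190 bases before the start and again, on the opposite strand, at 187 to 183 bases. Svep1 held TATAAA on the opposite strand, 42 to 37 bases before its start. The 4 runs thus share no single motif. Over the 7 members, CCAAT was in 3, against 33.8% of 32851 mouse runs of the same length. GGGCGG was in 4 of 7, against 32.7%, and TATAAA in 2 of 7, against 12.4%. TGANTCA and the CArG box, in 6.75% and 1.47% of all runs, were in 0 of 7. A match describes letters only and was not tied to any binding.

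Between PSGL1_KO and vector libraries, 4 of the 10 members passed the test, all of them higher in PSGL1_KO. These were Svep1, a very large secreted matrix protein, the protease inhibitors Reck and Tfpi2, and Sdc2, a heparan sulphate proteoglycan of the cell surface. Their differences ran from 0.54 to 1.30 on the log2 scale. The other 6, Col1a2 among them, had positive differences of 0.26 to 0.87 that did not pass. The test was edgeR's quasi-likelihood test with Benjamini-Hochberg adjustment over all 10422 IDs tested, at a threshold of 0.05. The count of 4 of 10 stands beside 9.02% of all IDs called higher (940 IDs) and 5.49% called lower (572 IDs). Among the 307 protein-coding IDs of the stretches that were tested, 22.1% were called higher and 2.93% lower. The median difference was 0.74 over the 10 members, 0.23 over those 307 IDs and -0.01 over all IDs. Because the members were picked with this contrast known, nothing is read from these counts.

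**Figure D1:**
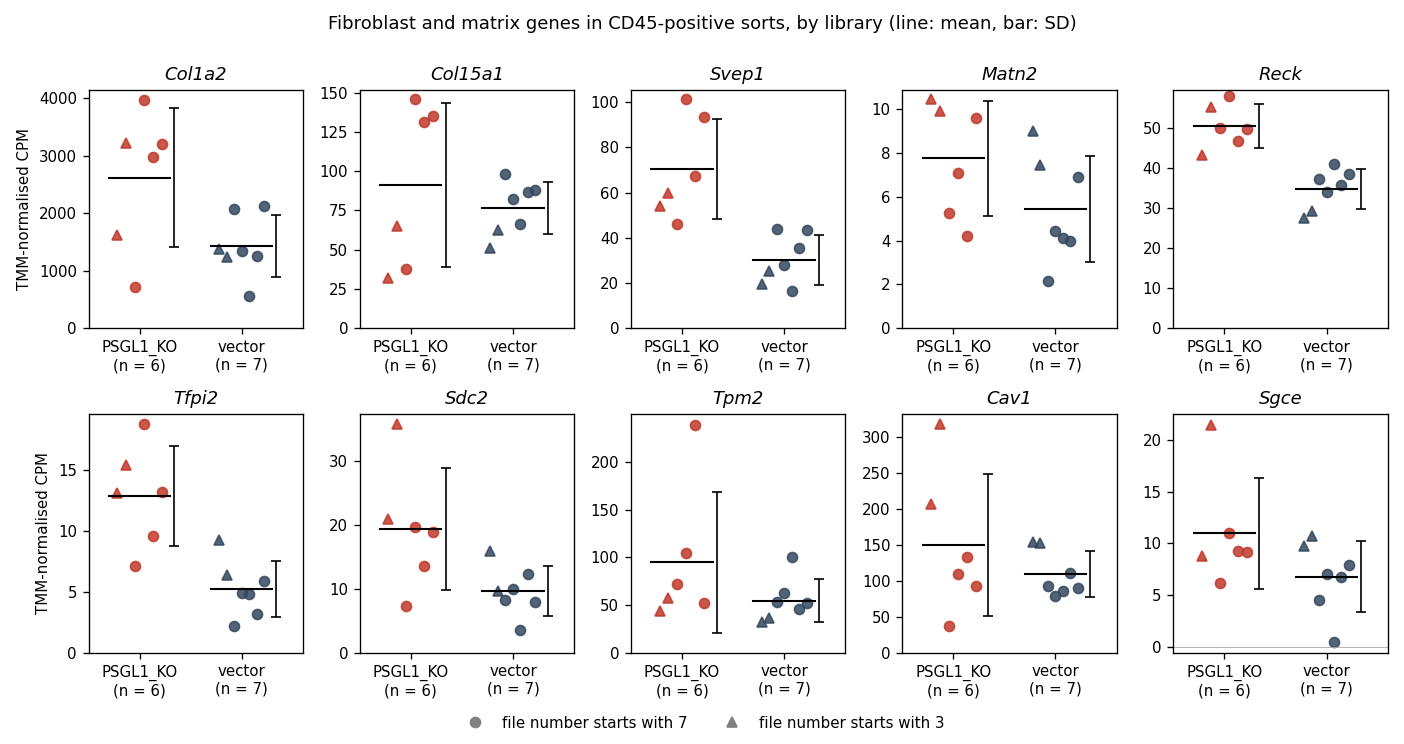
TMM-normalised CPM of the 10 genes in every library, with PSGL1_KO left and vector right in each panel. Each point is 1 library, the line is the mean, the bar is 1 SD, and circles and triangles are libraries whose file number starts with 7 and with 3. The 6 PSGL1_KO points of Svep1 and Reck all lie above the 7 vector points, and those of the other genes overlap them.

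Col1a2 encodes a chain of type I collagen, the main fibril of skin and tumour matrix, and it was by far the most abundant member. Its level was 712.4 CPM at the lowest, 3088 CPM at the median and 3978 CPM at the highest in PSGL1_KO libraries, against 562.6, 1345 and 2123 CPM in vector libraries. In PSGL1_KO 4 of 6 libraries lay above every vector library, replicate 1 (1618 CPM) lay within the vector range, and replicate 3 lay below all vector libraries except replicate 5. The means were 2617 ± 1209 CPM in PSGL1_KO and 1428 ± 536.5 CPM in vector (SD, n = 6 and 7). The log2 difference was 0.87 ± 0.33 (SE, 95% interval 0.19 to 1.56) and did not pass (edgeR, adjusted p = 0.083). A single library decided that call. Without PSGL1_KO replicate 3 the difference was 1.07 (edgeR, adjusted p = 0.013), and without vector replicate 5 it was 0.71 (adjusted p = 0.15). With both of these low libraries left out, an option chosen after their values were seen, it was 0.90 (adjusted p = 0.016).

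Col15a1 encodes a collagen of the zone where basement membranes meet the interstitial matrix. Its CPM was 31.89, 98.15 and 146.1 at the lowest, median and highest in PSGL1_KO libraries, against 51.01, 82.5 and 98.24 in vector libraries. The PSGL1_KO libraries split around the vector range, with 3 above all vector libraries and 2 below all of them. On the log2 scale the difference was 0.26 ± 0.31 (SE, 95% interval -0.39 to 0.90, edgeR adjusted p = 0.64). With 1 library left out it was 0.07 (without PSGL1_KO replicate 4) to 0.43 (without PSGL1_KO replicate 1).

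Svep1 binds integrins and takes part in the growth of lymphatic vessels. It measured 46.21, 63.61 and 101.2 CPM at the lowest, median and highest in PSGL1_KO libraries, against 16.5, 27.87 and 43.82 CPM in vector libraries. The groups did not overlap, as for Reck below, which makes 2 of 10 members, beside 4.14% of all IDs tested with every PSGL1_KO library higher and 2.41% with every one lower. The means were 70.35 ± 22.14 CPM in PSGL1_KO and 30.27 ± 10.96 CPM in vector (SD, n = 6 and 7). PSGL1_KO minus vector was, on the log2 scale, 1.22 ± 0.24 (SE, 95% interval 0.71 to 1.73, edgeR adjusted p = 0.002), and it passed with each library left out in turn, at 1.08 to 1.34. How many of these reads came from the opposite gene Gm26889 cannot be told apart without strand.

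Matn2 encodes a matrilin, an adaptor that links other matrix proteins into filaments. At 9 to 50 counts per library it was one of the least counted members. It had 4.219, 8.336 and 10.47 CPM at the lowest, median and highest in PSGL1_KO libraries, against 2.167, 4.424 and 9.017 CPM in vector libraries. The groups overlapped, with 3 of 6 PSGL1_KO libraries above every vector library. Its log2 difference was 0.50 ± 0.31 (SE, 95% interval -0.16 to 1.16, edgeR adjusted p = 0.32).

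Of the protease inhibitors, Reck sits in the membrane on a lipid anchor and restrains matrix metalloproteinases. Its CPM was 43.08, 49.78 and 57.93 at the lowest, median and highest in PSGL1_KO libraries, against 27.57, 35.77 and 41.0 in vector libraries. All 6 PSGL1_KO libraries lay above all 7 vector libraries, and the spread within a group was the smallest of the 10 members, at 10.8% of the mean in PSGL1_KO and 14.0% in vector. The log2 difference was 0.54 ± 0.14 (SE, 95% interval 0.24 to 0.84, edgeR adjusted p = 0.016). Tfpi2 is a secreted Kunitz-type inhibitor of serine proteases found in the matrix. It had 7.11, 13.18 and 18.75 CPM at the lowest, median and highest in PSGL1_KO libraries, against 2.167, 4.866 and 9.275 CPM in vector libraries. In PSGL1_KO 5 of 6 libraries were above every vector library, and replicate 3 was the exception. The log2 difference of Tfpi2, 1.30 ± 0.30 (SE, 95% interval 0.68 to 1.92, edgeR adjusted p = 0.0056), was the largest among the members. Reck and Tfpi2 both passed with each library left out in turn, at log2 differences of 0.49 to 0.58 and of 1.16 to 1.49.

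At the cell surface, Sdc2 carries heparan sulphate chains that bind growth factors and matrix. It measured 7.297, 19.28 and 35.71 CPM at the lowest, median and highest in PSGL1_KO libraries, against 3.639, 9.635 and 15.97 CPM in vector libraries. The groups overlapped, with 4 of 6 PSGL1_KO libraries above every vector library. On the log2 scale the difference was 0.99 ± 0.32 (SE, 95% interval 0.31 to 1.66, edgeR adjusted p = 0.046). This call was at the threshold and was lost in 10 of the 13 fits that left out 1 library. It held without vector replicate 1 and without PSGL1_KO replicates 3 and 5, and the log2 difference over the 13 fits was 0.73 to 1.18. Without vector replicate 5 it was 0.83 (edgeR adjusted p = 0.077).

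Cav1 encodes a caveolin, the coat protein of the membrane pits called caveolae. It had 37.79, 121.5 and 317.3 CPM at the lowest, median and highest in PSGL1_KO libraries, against 78.3, 92.7 and 154.3 CPM in vector libraries. The highest and the lowest library were both PSGL1_KO, with 2 of 6 above the vector range and replicate 3 below it. PSGL1_KO minus vector was, on the log2 scale, 0.46 ± 0.33 (SE, 95% interval -0.24 to 1.15, edgeR adjusted p = 0.41), and without PSGL1_KO replicate 2 it was 0.11. Its partner in caveolae, Cav2, lies next to it and had a log2 difference of -0.07 ± 0.24 (SE, edgeR).

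Tpm2 encodes a tropomyosin of contractile actin filaments. Its CPM was 43.33, 64.54 and 239.0 at the lowest, median and highest in PSGL1_KO libraries, against 32.21, 51.73 and 99.96 in vector libraries. PSGL1_KO replicate 5 carried the top value, and the other 5 PSGL1_KO libraries reached at most 105.0 CPM. Its log2 difference was 0.80 ± 0.35 (SE, edgeR adjusted p = 0.14), and without that library it was 0.28 (adjusted p = 0.57). Sgce encodes a sarcoglycan, a membrane protein of the complex that ties the cytoskeleton to the matrix. With 2 to 78 counts per library it was the member most limited by counting. It had 6.174, 9.239 and 21.43 CPM at the lowest, median and highest in PSGL1_KO libraries, against 0.4852, 7.078 and 10.73 CPM in vector libraries. Replicate 2 of PSGL1_KO was at the top and vector replicate 5 near 0, and the rest of the libraries overlapped. The log2 difference was 0.68 ± 0.40 (SE, edgeR adjusted p = 0.28).

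Levels were set against each other per kb of exon, with the exons of all annotated transcripts of a gene merged. Such a length can exceed that of the transcripts in use, and the order below depends on it. On that scale Col1a2 was highest, at 211 CPM per kb in PSGL1_KO and 115 in vector, which gave it rank 22 and rank 37 among the 469 protein-coding IDs of the stretches. Cav1 followed with 43.5 CPM per kb in PSGL1_KO and 31.6 in vector, and Tpm2 with 32.6 in PSGL1_KO and 18.8 in vector. Next came Col15a1 at 14.4 CPM per kb in PSGL1_KO and 12.0 in vector and Reck at 10.5 in PSGL1_KO and 7.26 in vector. Tfpi2 was at 7.37 CPM per kb in PSGL1_KO and 2.99 in vector, Sdc2 at 5.48 in PSGL1_KO and 2.74 in vector, and Svep1 at 4.37 in PSGL1_KO and 1.88 in vector. Matn2 at 1.24 CPM per kb in PSGL1_KO and 0.868 in vector and Sgce at 1.03 in PSGL1_KO and 0.637 in vector closed the order. Before division Sgce averaged more than Matn2, at 10.97 and 7.748 CPM in PSGL1_KO and 6.765 and 5.438 CPM in vector. Of the 9 pairs of neighbours in this order, 8 had overlapping ranges over libraries in PSGL1_KO and 7 in vector. The pair that did not overlap in PSGL1_KO was Svep1 over Matn2, and those in vector were Col1a2 over Cav1 and Reck over Tfpi2. The widest spread within a group was that of Tpm2 in PSGL1_KO, at 78.0% of its mean.

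Summed over the 10 genes, PSGL1_KO libraries held 982.4, 3652 and 4554 CPM at the lowest, median and highest, against 885.1, 1657 and 2464 CPM in vector libraries. Col1a2 made up 72.5% to 87.3% of that sum in PSGL1_KO and 63.6% to 86.2% in vector. Without Col1a2 the sum was 270.0, 525.4 and 654.3 CPM at the lowest, median and highest in PSGL1_KO, against 311.7, 339.2 and 341.7 CPM in vector. The vector libraries were thus close together in this remainder. PSGL1_KO replicate 3, at 270.0 CPM, lay below all of them, and every other PSGL1_KO library lay above all of them, at 432.8 CPM or more. PSGL1_KO replicate 3 was the lowest of its group for 6 of the 10 genes and replicate 4 the highest for 5. In vector, replicate 5 was the lowest for 4 genes and replicate 1 the highest for 4. Fewer cells of a type and less RNA per cell cannot be told apart in such libraries.

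The first digit of the file number separated 5 of the 10 members, in both directions. With the group in the model, Col15a1 (log2 difference, 7 minus 3, 0.87 ± 0.30 SE, edgeR adjusted p = 0.033) and Tpm2 (1.04 ± 0.37, adjusted p = 0.043) were higher in libraries whose number starts with 7. Cav1 (-1.12 ± 0.23, edgeR adjusted p = 0.0013), Matn2 (-0.78 ± 0.27, adjusted p = 0.023) and Sdc2 (-0.77 ± 0.27, adjusted p = 0.027) were lower in them. Over all IDs 20.9% were called higher in 7 and 18.9% lower, so 2 and 3 of 10 members are near the background. Col1a2 differed by 0.17 ± 0.42 (SE), and its libraries of both numbers overlapped in each group. The call of a higher level in 7 was lost for both Col15a1 and Tpm2 without PSGL1_KO replicate 1 or 2 or vector replicate 1.

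Cav1 shows the pattern most plainly. In libraries of number 7 it spanned 37.79 to 133.3 CPM in PSGL1_KO and 78.3 to 110.1 CPM in vector. In those of number 3 it spanned 207.1 to 317.3 CPM in PSGL1_KO and 151.8 to 154.3 CPM in vector. Every library of number 3 was therefore above every library of number 7, whatever its group.

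Within number 7 alone, where 4 PSGL1_KO met 5 vector libraries, Svep1 (1.20), Tfpi2 (1.54) and Reck (0.45) passed (log2 differences, edgeR adjusted p = 0.007, 0.0031 and 0.019). Sdc2 (0.80, adjusted p = 0.092) and Col1a2 (0.87, adjusted p = 0.31) did not, and Cav1 was at 0.03. Within number 3, with 2 libraries a group, Col1a2 (0.91), Svep1 (1.37), Reck (0.82), Sdc2 (1.18) and Cav1 (0.81) passed (edgeR adjusted p = 4.7e-05, 9.9e-07, 0.0064, 0.00097 and 0.00037). Tfpi2 was at 0.91 there (adjusted p = 0.051), and Col15a1 at -0.21. Whether the PSGL1_KO difference itself changed with the file number was tested by an interaction term, which called 0 of the 10 members and 2.11% of all IDs. Its lowest unadjusted p among the members was 0.14, for Cav1, and DESeq2 was not run on this term. Svep1 and Reck thus passed within each file number, although number 3 rests on 2 libraries a group.

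**Figure D2:**
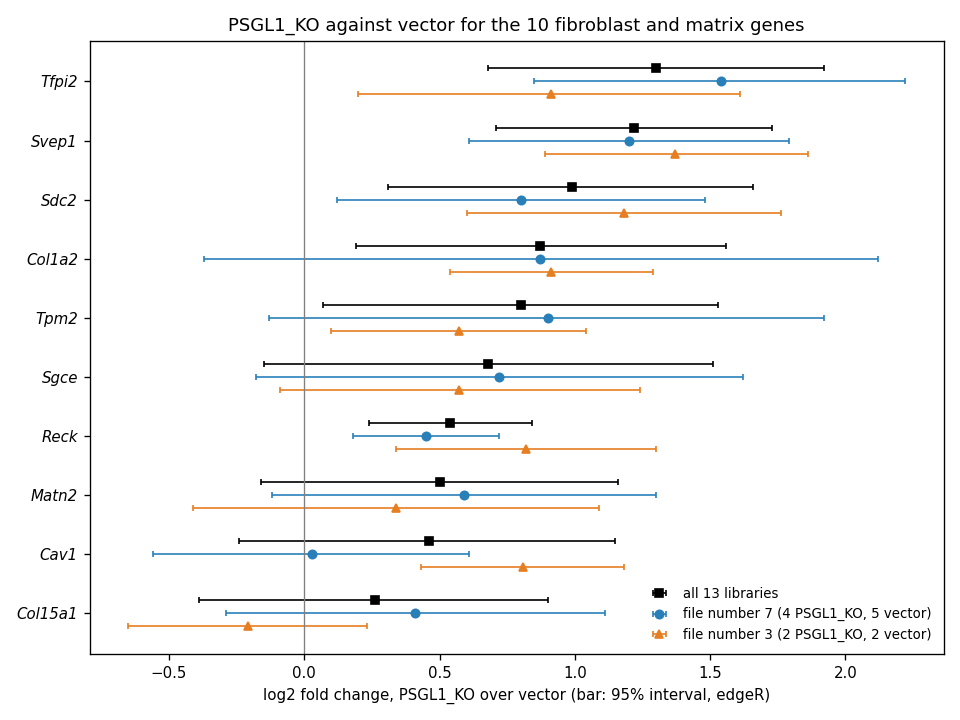
Log2 difference of PSGL1_KO over vector for each gene, from all 13 libraries (squares), from libraries of file number 7 (circles) and from those of number 3 (triangles), with 95% intervals by edgeR. Tfpi2, Svep1 and Sdc2 have the largest differences, 1.30, 1.22 and 0.99, and Cav1 lies at 0.03 for number 7 and 0.81 for number 3.

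Scaling mattered for the smaller differences. When libraries were scaled on the nuclear IDs of the stretches alone, the median log2 difference over all IDs was -0.21, in place of -0.01. The members' median was then 0.55, in place of 0.74, so their distance from it stayed nearly the same. Under that scaling Svep1 (1.03, edgeR adjusted p = 0.012) and Tfpi2 (1.10, adjusted p = 0.013) passed, and Reck (0.33, adjusted p = 0.14) and Sdc2 (0.75, adjusted p = 0.095) did not. All 10 members stayed positive, with Col15a1 lowest at 0.09. Of all calls, 33.5% were then higher in PSGL1_KO, against 62.2% under the scaling used elsewhere.

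The 10 genes did not move as a single block from library to library. Over their 45 pairs the Pearson correlation of log2(CPM + 1) had a median of 0.45 across the 6 PSGL1_KO libraries, with a range of -0.86 to 0.91 and 38 pairs positive. Across the 7 vector libraries the median was -0.01, the range -0.89 to 0.95, and 22 pairs were positive. Some pairs were high in both groups. Sdc2 with Sgce had r = 0.89 in PSGL1_KO and 0.87 in vector, Col15a1 with Svep1 0.88 in PSGL1_KO and 0.84 in vector, and Col1a2 with Svep1 0.81 in PSGL1_KO and 0.84 in vector. Tpm2 had r of both signs, with -0.86 to Matn2 and 0.56 to Col15a1 in PSGL1_KO, and -0.89 to Sgce, -0.88 to Sdc2, 0.33 to Col15a1 and 0.84 to Reck in vector. Vector replicate 5, lowest for Sgce and highest for Tpm2, carries part of the vector values, and without it the median r of Col1a2 to the other 9 was -0.33, in place of 0.05. That median also moved with the scaling. It was 0.64 in PSGL1_KO and 0.05 in vector with TMM factors, and 0.65 in PSGL1_KO and 0.54 in vector without them. Libraries of 1 file number share whatever it stands for, so these are descriptions.

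**Figure D3:**
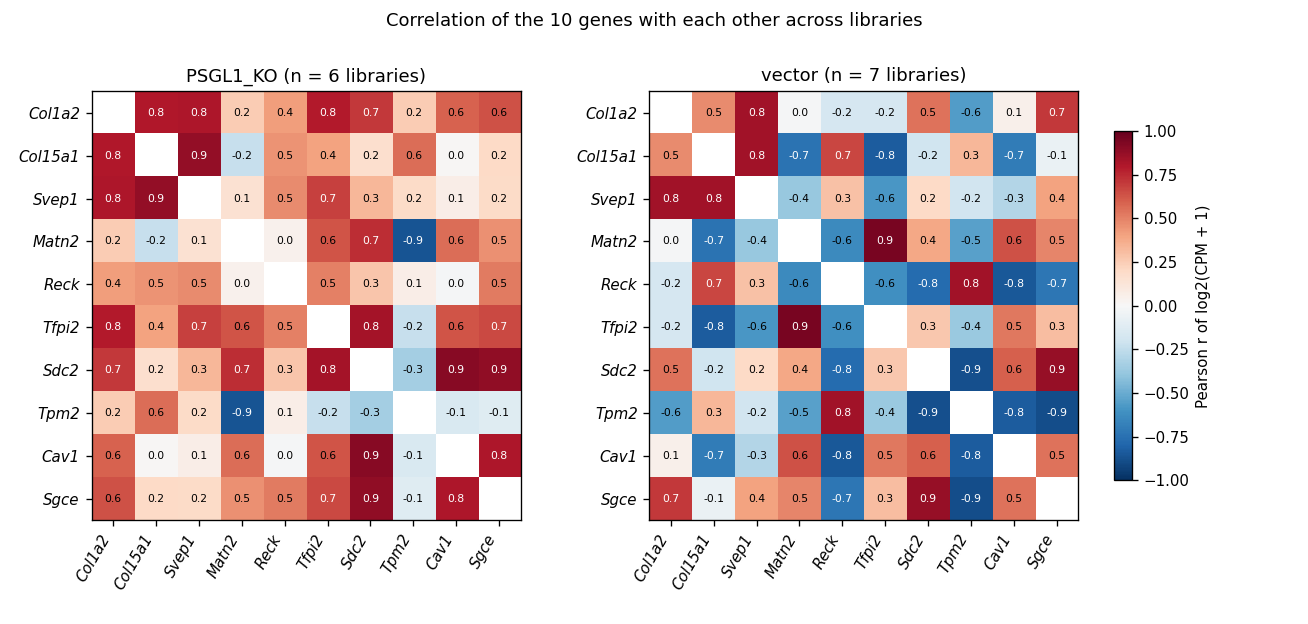
Pearson correlation of log2(CPM + 1) for each pair of the 10 genes, across 6 PSGL1_KO libraries (left) and 7 vector libraries (right), with red positive, blue negative and the value to 1 decimal in each cell. The left panel is mostly red, with 38 of 45 pairs positive, and the right panel holds 22 positive pairs, with Tpm2 and Reck blue against Sdc2, Cav1 and Sgce. The CPM are scaled with TMM factors, without which the median of the Col1a2 row in vector is 0.54 in place of 0.05.

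Set against Col1a2 alone, 18 relations were computed, 9 members in each group, with exact two-sided permutation tests over libraries. None of the 18 passed after Benjamini-Hochberg adjustment, where the lowest adjusted p was 0.14 for r and 0.30 for rho. In vector libraries Svep1 was closest, with r = 0.84 (exact permutation p = 0.0075, adjusted p = 0.14) and rho = 0.71 (exact permutation p = 0.088, adjusted p = 0.36). Leaving out replicates 5 and 7, the farthest from the median of Col1a2, gave r = 0.62. In PSGL1_KO libraries Svep1 had r = 0.81 (exact permutation p = 0.047, adjusted p = 0.21) and rho = 0.83 (exact permutation p = 0.058, adjusted p = 0.35), and r = 0.68 without replicates 1 and 3. Svep1 therefore kept its sign in both groups and without the extreme libraries.

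For Tfpi2 the values in the groups lay apart. In PSGL1_KO its r was 0.79 (exact permutation p = 0.043, adjusted p = 0.21), its rho 0.94 (exact permutation p = 0.017, adjusted p = 0.30) and its r without replicates 1 and 3 0.88. In vector its r was -0.17, and the difference between the groups was not tested. Col15a1 had r = 0.80 in PSGL1_KO (exact permutation p = 0.037, adjusted p = 0.21), with rho = 0.77 (exact permutation p = 0.10, adjusted p = 0.36). Its r was 0.29 once replicates 1 and 3 were left out, which narrows the range of Col1a2 and leaves 4 libraries. Sgce had rho = 0.89 in PSGL1_KO (exact permutation p = 0.033, adjusted p = 0.30) beside r = 0.64, and r was 0.02 without the same libraries. The other relations had unadjusted p of 0.12 or more for r by exact permutation.

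Several correlations with Col1a2 were higher once the file number was taken off. Over all 13 libraries with group means taken off, the r to Col1a2 was 0.79 for Svep1, 0.70 for Col15a1, 0.64 for Sdc2, 0.61 for Sgce and 0.44 for Cav1. With the file number taken off as well, these became 0.88, 0.86, 0.79, 0.71 and 0.69. Tfpi2 (0.30 and 0.36), Matn2 (0.11 and 0.17), Reck (0.11 and 0.13) and Tpm2 (-0.01 and -0.02) changed little. Within the groups, leaving out the pair of libraries farthest from the median of Col1a2 gave an r to Col1a2 of 0.15 in PSGL1_KO and -0.5 in vector for Sdc2. It gave -0.24 in PSGL1_KO and -0.39 in vector for Cav1, and 0.02 in PSGL1_KO and -0.78 in vector for Sgce. The r of these 3 genes was thus lower without those libraries. Leaving out the extremes of Col1a2 narrows its range, and only 4 libraries in PSGL1_KO and 5 in vector remained. Whether the relations depend on those libraries alone cannot be decided from this.

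**Figure D4:**
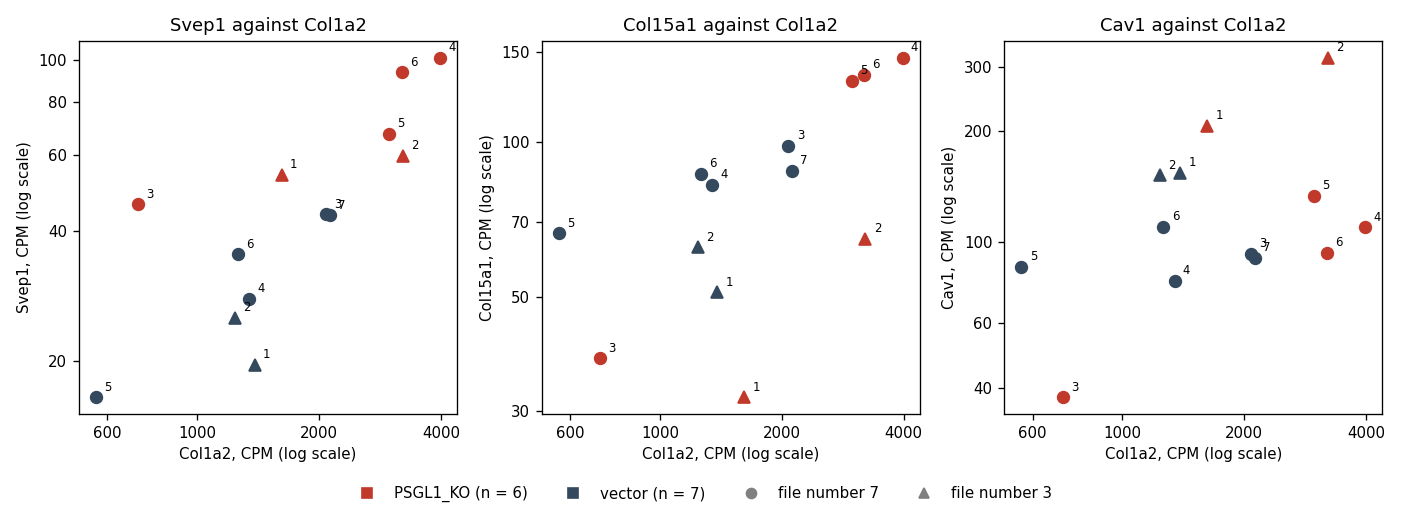
CPM of Svep1, Col15a1 and Cav1 against CPM of Col1a2 on log axes, 1 point per library with its replicate number, PSGL1_KO in red and vector in dark blue, circles for file number 7 and triangles for 3. Svep1 climbs with Col1a2 in both groups, and the triangles of Cav1 lie above all circles, at 151.8 to 317.3 CPM.

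Outside the members, 274 protein-coding genes of the stretches averaging 5 CPM or more were ranked by r with Col1a2 over the 13 libraries, group means taken off. Their median r was 0.08, and 166 of them were at or above the lowest member, Tpm2 at -0.01. The highest member was Svep1 at 0.79, below the first 2 genes named next. The 8 highest were Mob3b (0.844), Fam206a (0.81), Ddx58 (0.745), B4galt1 (0.731), Laptm4b (0.715), Lpar1 (0.713), 1700022I11Rik (0.71) and Vcp (0.706). The last pair overlap on opposite strands by 352 bases of exon. Once the file number was also taken off, Lpar1, a receptor for lysophosphatidic acid, had the highest r of the 8, at 0.914. Its mean was 24.9 CPM in PSGL1_KO and 11.2 CPM in vector. Mob3b, the first of the list, had a log2 difference of -0.36 (edgeR adjusted p = 0.27).

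Other genes of stromal cells came from lists of general knowledge, written with earlier results of these data known. The numbers called among them are therefore a description and no independent evidence. The lists were not limited to genes that leukocytes lack, and which cells held the RNA of the listed genes was not tested. The lists held 55 genes in all, of which 50 lie in the stretches and 28 had enough counts to be tested. Of the 28, 13 were higher in PSGL1_KO and 1 was lower, with a median log2 difference of 0.66. Called higher were 9.02% of all IDs and 22.1% of the 307 protein-coding IDs of the stretches, called lower 5.49% and 2.93%, with median differences of -0.01 and 0.23. The other 22 averaged 2.57 CPM or less, and Ccl19, Ccl21a, Cdh12 and Cdh18 had no count in any library. Ccl19 and Ccl21a have near-identical copies nearby, and reads with more than 1 alignment were not counted, so a 0 there does not show that the genes were silent.

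Receptors through which stromal cells sense growth factors and cytokines stood at 5 of 6 higher in PSGL1_KO, beside 9.02% of all IDs and 22.1% of the protein-coding IDs of the stretches. Il11ra1, the receptor of interleukin 11, had 130.1, 161.1 and 303.3 CPM at the lowest, median and highest in PSGL1_KO libraries, against 61.46, 70.55 and 99.45 CPM in vector libraries. The groups did not overlap, and the log2 difference was 1.27 ± 0.19 (SE, edgeR adjusted p = 0.00014). A near-identical copy, Il11ra2, lies nearby, so how reads were split between them is uncertain. Tgfbr1, a receptor of TGF-beta, which drives collagen synthesis, had 158.8, 180.6 and 275.3 CPM in PSGL1_KO, against 78.36, 90.29 and 178.0 CPM in vector. Its groups overlapped in the top vector library, and the log2 difference was 0.90 ± 0.22 (SE, edgeR adjusted p = 0.0082). Lpar1 (1.15 ± 0.29, adjusted p = 0.011), the natriuretic peptide receptor Npr2 (0.89 ± 0.28, adjusted p = 0.04) and the ciliary neurotrophic factor receptor Cntfr (2.39 ± 0.47, adjusted p = 0.0019) also passed by edgeR. Cntfr rests on few reads, with means of 8.036 CPM in PSGL1_KO and 1.503 CPM in vector. Sema5a, a semaphorin, was at 0.54 ± 0.28 (SE) and did not pass.

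Genes of caveolae and the actin cytoskeleton stood at 5 of 10 higher, beside the same 9.02% and 22.1%. The kinase Tesk1, which acts on cofilin, was at 1.80 ± 0.23 (log2, SE, edgeR adjusted p = 2.6e-05), but 32.1% of its exon bases lie under the opposite gene Cd72, so their reads cannot be told apart without strand. Glipr2 (1.29 ± 0.26, edgeR adjusted p = 0.0018), the actin-binding Rai14 (1.03 ± 0.23, adjusted p = 0.0045), Tes, a focal adhesion protein (1.00 ± 0.18, adjusted p = 0.00076), and Basp1 (0.82 ± 0.26, adjusted p = 0.038) passed as well. For Tes the groups did not overlap, at 24.88 to 46.7 CPM in PSGL1_KO and 14.38 to 23.7 CPM in vector. Talin, encoded by Tln1, had a log2 difference of 0.00 ± 0.32 (SE) and Myo10 one of -0.04 ± 0.19.

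In the matrix list 1 of 5 passed, Col28a1, a collagen at 4.43 ± 2.915 CPM in PSGL1_KO and 1.202 ± 0.8713 CPM in vector (SD, n = 6 and 7). Its log2 difference was 1.83 ± 0.53 (SE, edgeR adjusted p = 0.026). Adamts12, a metalloproteinase, was at 0.57 ± 0.37 and C1qtnf3 at -0.77 ± 0.44 (log2, SE), and neither passed. Msmp (-0.25 ± 0.31) did not pass either, and 100% of its exon bases lie under the opposite gene Rgp1. Of 3 adhesion genes Sdcbp passed, which encodes syntenin, the partner of the syndecan tail. It averaged 1215 ± 318.0 CPM in PSGL1_KO and 800.2 ± 184.0 CPM in vector (SD, n = 6 and 7), with a log2 difference of 0.60 ± 0.18 (SE, edgeR adjusted p = 0.034). Of 4 transcription factors Zfp462 was higher (0.40 ± 0.13, edgeR adjusted p = 0.048) and Dlx6, a homeobox gene of the skeleton, was lower (-1.90 ± 0.37, adjusted p = 0.0015), with no overlap at 0.3742 to 2.747 CPM in PSGL1_KO and 3.539 to 6.551 CPM in vector. Leaving out 1 library in turn ended the call of Zfp462 in 11 of 13 fits, of Sdcbp in 8, of Npr2 in 7 and of Basp1 in 6. For Col28a1 it did so in 3 of 12 fits, and without vector replicate 7 the gene was not tested. Without vector replicate 5 the log2 difference was 0.54 for Sdcbp (edgeR adjusted p = 0.067), 0.38 for Zfp462 (adjusted p = 0.09) and 0.81 for Basp1 (adjusted p = 0.066). The counts of 1 higher among 5 matrix, 3 adhesion and 4 transcription factor genes stand beside the same 9.02% and 22.1%.

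**Figure D5:**
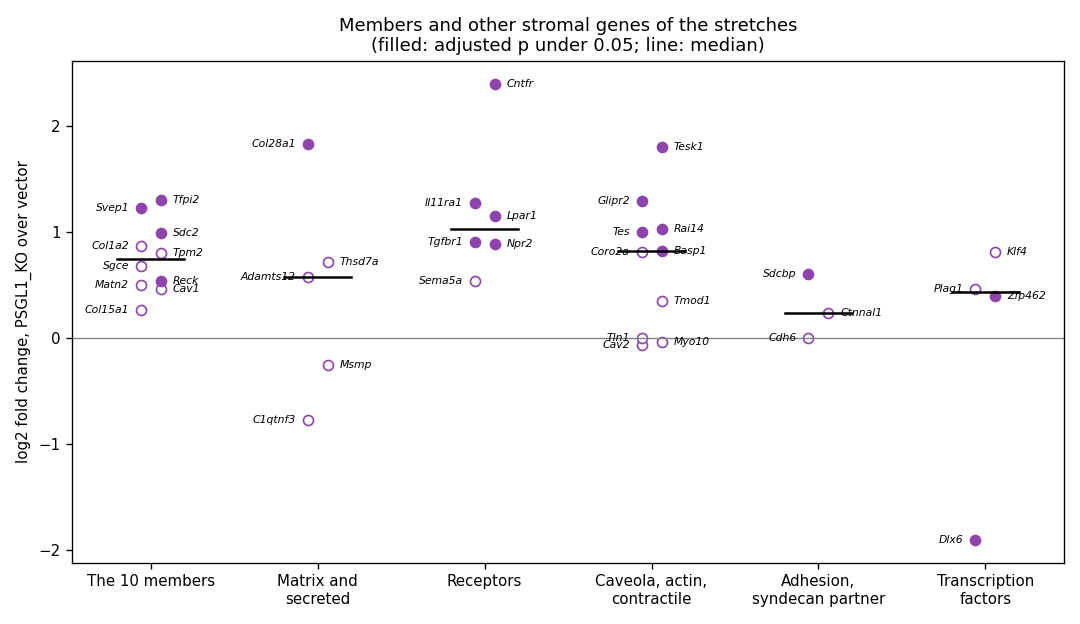
Log2 difference of PSGL1_KO over vector by edgeR for the 10 members and for the 28 other stromal genes tested, by list, filled where the adjusted p was under 0.05 and with a line at each list's median. Receptors have 5 of 6 filled points, the matrix list 1 of 5, and Dlx6 lies lowest at -1.90.

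Markers of other cells moved with the same contrast. The 3 myeloid markers Lyn, Tfec and Atp6v0d2 summed to 292 to 519 CPM in PSGL1_KO and 68.5 to 157 CPM in vector, and 3 of 3 passed as higher (edgeR). Lyn, which B cells also use, had a median of 259.2 CPM in PSGL1_KO and 57.2 CPM in vector. The sum therefore does not separate myeloid cells from B cells. Beside these calls and those below, 9.02% of all IDs and 22.1% of the protein-coding IDs of the stretches were called higher. Called lower were 5.49% and 2.93%. The B-cell markers Pax5 and Cd72 summed to 153 to 322 CPM in PSGL1_KO and 29.9 to 77.5 CPM in vector. Cd72 passed as higher and Pax5 did not, at PSGL1_KO medians of 244.7 and 12.99 CPM. Cd72 shares 1423 exon bases with Tesk1 on the opposite strand. The T-cell markers Il7r, Sit1, Tox and Bach2 summed to 363 to 557 CPM in PSGL1_KO and 434 to 606 CPM in vector, with Bach2 higher and Sit1 lower. Of the epithelial markers, 4 of 5 were under 5 CPM in every library and Grhl2 made up nearly all of a sum of 91.5 to 118 CPM in PSGL1_KO and 124 to 221 CPM in vector. Grhl2 passed as lower (log2 difference -0.66 ± 0.15 SE, edgeR adjusted p = 0.0066), with every PSGL1_KO library below every vector library. The reticular stroma markers Ccl19 and Ccl21a were at 0 in every library. The adipocyte marker Aqp7 reached at most 0.824 CPM in PSGL1_KO and 2.18 CPM in vector, and the erythroid marker Hemgn 3.41 CPM in PSGL1_KO and 7.15 CPM in vector. The neural markers Gabbr2, Grin3a, Calb1 and Tac1 summed to 20.6 to 49.8 CPM in PSGL1_KO and 21.7 to 44.2 CPM in vector, nearly all from Gabbr2, with Calb1 at 0. The skeletal markers Dlx5, Dlx6 and Calcr summed to 0.374 to 3.57 CPM in PSGL1_KO and 3.54 to 6.79 CPM in vector. The muscle markers Musk and Tmod1 summed to 167 to 241 CPM in PSGL1_KO and 122 to 191 CPM in vector, of which Musk was under 5 CPM throughout. Of the exon bases of Tmod1, 32.6% lie under the opposite gene Tstd2, so their reads cannot be told apart without strand. The part of the myeloid and B-cell markers in the members' differences was not tested.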

How the data were processed

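The authors deposited raw read counts per gene ID, 1 file per library, made with HISAT2, SAMtools and HTSeq on mm10 per the submitters' processing notes, with no version, annotation release or strand setting given in the sources used here. The 5 HTSeq summary entries of each file, of which reads over no feature made up 67.31% to 75.38%, entered neither library sizes nor tests. Of 56923 IDs, 52073 matched GENCODE M21 without their version, and names were used in 3 stretches, on chromosome 4 (3549041 to 59801589), 6 (3457096 to 17341452) and 15 (9071260 to 38078854), a limit drawn from the counts themselves. No pair of libraries of a group agreed within sampling noise, the lowest mean chi-square per ID being 2.99. Some pairs were much closer than others. In vector the value ran from 2.99 (replicates 3 and 7) to 84.19 (replicates 2 and 5), and in PSGL1_KO from 5.23 (replicates 4 and 6) to 38.14 (replicates 2 and 5).

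Groups came from the sample titles. The test was edgeR 4.0.16 in R 4.3.3 (quasi-likelihood, robust, TMM factors, filterByExpr, two-sided), with adjustment over 10422 IDs. It was also run on simulated data of independent libraries with 1 common dispersion. The close pairs of libraries found here were not simulated, so that run does not vouch for the calls. Levels are TMM-normalised CPM, and counting error sets a limit at the low counts of Sgce, Matn2, Tfpi2 and Sdc2. The common dispersion had a square root of 29.4%. Log2(CPM + 1) entered the correlations. DESeq2 1.42.0, other scalings, no filter, the file number as a term or limit, and each library left out were the alternatives. The 10 members and the lists were chosen with earlier results of these data known. All members are named, as are listed genes that passed, up to 15, and the 8 genes most like Col1a2 with a mean of 5 CPM or more. Listed genes named without passing were singled out after their values were seen.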

Additional observations from a re-analysis of the deposited data

Results flagged for a closer look

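Over 48 sets of 6 or 7 libraries, 1 for each group and each of the 10 members and the 14 listed genes that passed, a library stood apart from the rest of its group in 3, and chance gives about 1 in 20 sets. For Tpm2, PSGL1_KO replicate 5 had 239.0 CPM, where the other PSGL1_KO libraries had 43.3 to 105.0 CPM. For Sgce, PSGL1_KO replicate 2 had 21.4 CPM, where the others of its group had 6.17 to 11.0 CPM. For Il11ra1, the same PSGL1_KO replicate 2 had 303.0 CPM, where the others of its group had 130.0 to 179.0 CPM. Without the library that stood apart, the log2 difference of PSGL1_KO over vector was 0.28 for Tpm2, 0.39 for Sgce and 1.07 for Il11ra1 (edgeR adjusted p = 0.57, 0.57 and 0.00011). The causes were not tested.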

How the results depend on the processing

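Over all IDs, 601 were higher and 1192 lower in PSGL1_KO with scaling on the stretches, and 1435 and 1254 with the file number as a term, against 940 and 572 in the fit reported. IDs lower numbered 1038 within file number 7 and 1135 within number 3. Leaving out 1 library gave 753 to 1034 higher and 428 to 607 lower. The 4 members called higher became 2 under scaling on the stretches and 3 to 5 with 1 library left out, and Col15a1 had a log2 difference of -0.21 within number 3. Members higher in file number 7 were 1 without the filter and 0 to 3 with 1 library left out (0 without PSGL1_KO replicate 1 or 2 or vector replicate 1, 1 without PSGL1_KO replicate 4 or 6 or vector replicate 2 or 4), against 2. Members lower in 7 were 1 to 4, with 1 without vector replicate 1, against 3. The median r of Col1a2 with the other members was 0.64 in PSGL1_KO and 0.05 in vector. With 1 library left out it was 0.37 to 0.75 in PSGL1_KO (0.37 without replicate 3) and -0.33 to 0.31 in vector (-0.33 without replicate 5), and 0.54 in vector without TMM factors. The smaller fits also hold fewer libraries, and the causes of these changes were not tested. Reck was not called without the filter (adjusted p = 0.093). DESeq2 called the same 4 members.

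Whether libraries of the same replicate number form pairs could not be decided from the counts. With group means taken off, same-numbered libraries had correlations of -0.05 to 0.60. PSGL1_KO replicates 1 and 6 correlated best with the vector library of their own number, and replicates 2 to 5 with one of another number. Same-numbered libraries also share the first digit of the file number, so a replicate block takes that digit up as well. With the replicate block, on numbers 1 to 6, 1212 IDs were higher and 881 lower, against 830 and 444 without the block on the same libraries, an option added after the data were seen. Members called higher were 5 with the block, where Tpm2 joined the 4 (adjusted p = 0.0056).

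Depth limits Sgce, Matn2, Tfpi2 and Sdc2, which had as few as 2 to 15 counts in a library.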
